A study of Mus musculus with 12 samples.

Results

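Glycolysis and the response to low oxygen were followed through 35 genes chosen by name: the glucose transporter and enzymes that turn glucose into pyruvate and lactate, the enzymes that set their pace, the hypoxia-inducible factor (HIF) subunits, the prolyl hydroxylases that act on HIF, and further well-known HIF targets. All 35 had a row among the 23420 genes of the deposited count table. BMAL1 binding near them was read in the deposited ChIP-seq regions, of which 24 of 4740 lay within 10 kb of the start of a listed gene, near 17 of the 35.

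Glycolysis splits glucose into pyruvate in the cytosol, and lactate dehydrogenase can reduce pyruvate to lactate so that the pathway continues without oxygen. HIF is a pair of bHLH-PAS proteins, an alpha subunit that is destroyed when oxygen is present and a stable beta subunit. The EGLN prolyl hydroxylases mark the alpha subunit for that destruction, and most glycolytic enzymes are among its targets. BMAL1 (gene Arntl), an activator of the circadian clock, belongs to the same protein family, binds E-box sequences with CLOCK, and is held back by the PER and CRY proteins.

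The cells were mouse embryonic fibroblasts on a 129/sv background, labelled per1 -/-, per2 -/-, nr1d1 -/- and nr1d2 -/-, and all of them carried a PER2-ER transgene. They received either 1 µM 4-hydroxytamoxifen (4-OHT), the ligand used to switch on proteins fused to an estrogen receptor domain, or its solvent, 0.1% ethanol (EtOH), for 4 h. The study compared cells with and without induced PER2. Each treatment gave 2 mRNA libraries, 2 BMAL1 ChIP libraries and 2 input libraries, 12 libraries in 6 groups. The labels do not say whether the 2 replicates of a group are separate cultures, and a p-value here speaks only of how far these libraries scatter, a scatter that may be technical. The promoter of the transgene and the number of cell lines are not given in the sources used here. Cells without the transgene were not analysed here, so an effect of 4-OHT itself and one of PER2-ER cannot be told apart.

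The mRNA libraries held between 60267540 reads (EtOH replicate 2) and 89695667 reads (4-OHT replicate 2) counted to genes, and the ChIP and input libraries between 12481308 and 33454366 reads. All 4 genes labelled as knocked out still had reads counted to them, from 1141 for Nr1d1 to 55079 for Per2 in a library. Reads counted to Per2 can include those of the PER2-ER transgene that all cells carried, and its share was not tested. Reads of Nr1d1 fell with 4-OHT, from 3503 and 3349 to 1141 and 1585 (log2 -1.63, SE 0.08, adjusted p = 1.20e-19, edgeR), and those of Nr1d2 from 5938 and 5539 to 2749 and 3190 (log2 -1.24, SE 0.07, adjusted p = 4.47e-17, edgeR), while Per1 and Per2 changed by 0.08 and 0.06 (adjusted p = 0.85 and 0.88, edgeR). All groups carry the same alleles, and which parts were deleted is not stated in the sources used here, so these reads check no label. Of 12 fibroblast markers, 10 reached 1 CPM (count per 1000000 counted reads) in some library, Thy1 was at 0 and Dcn at 0.115 to 0.199 CPM. Their summed level was 32599 and 30231 CPM with EtOH and 30922 and 32913 CPM with 4-OHT. Epithelial markers summed to at most 30.4 CPM, muscle markers to at most 5.73 CPM and immune markers to at most 3.46 CPM. Endothelial markers summed to at most 0.158 CPM, with Cdh5 and Tie1 at 0. The adipocyte markers Adipoq and Plin1 were at 0, and Fabp4, the third of that list, fell from 71.9 and 76.8 CPM with EtOH to 57.9 and 59.1 CPM with 4-OHT (log2 -0.35, adjusted p = 7.67e-04, edgeR). Its part in the results below was not tested.

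Sequence before the annotated starts is shown for 5 genes on which the results turn: Hif1a, Bnip3 and Ldha, whose starts lay in strong BMAL1 regions, Ankrd37, bound with no canonical E-box in this window, and Egln3, the one gene whose mRNA passed the test. Each line gives the 250 bases before the RefSeq start (GRCm38.p6, the C57BL/6J reference, not the 129/sv cells), 5′ to 3′ on the gene's strand. Capitals mark the letters CACGTG, the canonical E-box, and ACGTG on either strand, the core of the hypoxia response element, which also lies inside every CACGTG.
Hif1a (chr12:73907617-73907866, plus strand): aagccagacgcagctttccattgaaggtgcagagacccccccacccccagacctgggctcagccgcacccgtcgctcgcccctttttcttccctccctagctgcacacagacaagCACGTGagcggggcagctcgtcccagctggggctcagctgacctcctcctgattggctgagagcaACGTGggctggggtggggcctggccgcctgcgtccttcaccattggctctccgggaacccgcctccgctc
Bnip3 (chr7:138909507-138909756, minus strand): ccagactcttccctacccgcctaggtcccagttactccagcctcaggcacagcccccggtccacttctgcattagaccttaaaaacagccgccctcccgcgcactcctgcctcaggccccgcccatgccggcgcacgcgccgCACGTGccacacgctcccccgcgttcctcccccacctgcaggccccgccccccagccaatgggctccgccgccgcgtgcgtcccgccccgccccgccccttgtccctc
Ldha (chr7:46845554-46845803, plus strand): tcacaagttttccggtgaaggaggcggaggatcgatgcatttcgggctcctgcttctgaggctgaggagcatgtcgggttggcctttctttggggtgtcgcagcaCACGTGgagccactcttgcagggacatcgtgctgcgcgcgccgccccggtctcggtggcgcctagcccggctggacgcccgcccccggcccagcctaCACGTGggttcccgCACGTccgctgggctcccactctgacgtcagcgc
Ankrd37 (chr8:45999851-46000100, minus strand): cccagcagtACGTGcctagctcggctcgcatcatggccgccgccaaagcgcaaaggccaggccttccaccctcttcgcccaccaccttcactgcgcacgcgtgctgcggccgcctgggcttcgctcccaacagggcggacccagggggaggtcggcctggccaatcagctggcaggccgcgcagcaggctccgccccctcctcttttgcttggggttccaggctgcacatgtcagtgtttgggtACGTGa
Egln3 (chr12:54203875-54204124, minus strand): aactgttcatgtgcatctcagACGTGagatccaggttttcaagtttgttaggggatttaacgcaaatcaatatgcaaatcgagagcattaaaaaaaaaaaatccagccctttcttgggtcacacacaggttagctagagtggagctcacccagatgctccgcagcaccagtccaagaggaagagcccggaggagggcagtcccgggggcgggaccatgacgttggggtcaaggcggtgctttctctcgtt

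The E-box of Hif1a began 135 bases before the start, that of Bnip3 108 bases before it, and Ldha held 2, at 145 and 48 bases. All of these lay inside the BMAL1 region at their gene. The table of RefSeq promoters matched 33 of the 35 genes, with 47 windows because some genes have several starts, and Bnip3l and Ndrg1 had no entry. CACGTG occurred in 5 of these 47 windows (10.6%), against 6.02% of all 32851 windows in the table. The other 2 windows were at Pfkm, where the E-box lay in no region, and at a second start of Pfkfb3, 51839 bases from its first one, where it lay inside a region. ACGTG occurred in 22 of the 47 windows (46.8%), against 16.6% of all windows. A match says only that these letters are present.

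Of the listed genes, Egln3 alone passed the test for a change in mRNA. Tests used edgeR's quasi-likelihood fit over 13216 genes with Benjamini-Hochberg adjustment, and a call means an adjusted p below 0.05. Of the 35 genes, 32 passed the filter on low counts. Of these, 1 was called higher with 4-OHT and 0 lower, where 0.802% of all tested genes were called higher and 1.63% lower. At an unadjusted p below 0.05 stood 6 of the 32, all of them positive changes, where 10.1% of all tested genes stood in either direction and 5.04% with a positive change. DESeq2, run as an alternative, likewise called 1 higher and 0 lower, where it called 0.47% and 1.39% of all genes. In bulk RNA, a change in the amount per cell and a change in the share of cells that express a gene cannot be told apart.

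Egln3 (chr12:54178981-54203874, mm10) encodes PHD3, a hydroxylase of HIF that is itself a HIF target. It stood at 41.5 and 35.1 CPM in the EtOH libraries and at 45.9 and 52.8 CPM in the 4-OHT libraries, so both 4-OHT libraries were above both EtOH libraries. The rise was 1.29-fold (log2 0.37, SE 0.08, adjusted p = 0.00345, edgeR). The call rested on the second replicates: without EtOH replicate 2 the change was 0.25 (adjusted p = 0.449, edgeR) and without 4-OHT replicate 2 it was 0.26 (adjusted p = 0.163, edgeR). Egln1, which encodes the main HIF hydroxylase PHD2, had the higher level per exon length, 36.0 ± 2.01 RPKM (CPM per kilobase of exon; SD, n = 2) with EtOH against 14.3 ± 1.69 RPKM for Egln3. Of the summed RPKM of Egln1, Egln2 and Egln3, Egln3 made up 19.3% ± 0.984 with EtOH and 22.2% ± 0.878 with 4-OHT (SD, n = 2).

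Hif1a, the oxygen-regulated alpha subunit, was among the most abundant of the listed mRNAs at 104 ± 6.83 RPKM (SD, n = 2) with EtOH. Its libraries read 473 and 519 CPM with EtOH and 493 and 446 CPM with 4-OHT, and the groups overlapped (log2 -0.08, SE 0.07, adjusted p = 0.799, edgeR). Hif1a made up 99.0% of the summed RPKM of the 3 alpha subunits in both treatments. Hif3a, the third alpha subunit, had 2 or 3 reads in any library and was not tested.

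Most enzymes of glycolysis lay slightly above 0 in the estimates and none passed the test. The glucose transporter gene Slc2a1 (GLUT1) read 176 and 151 CPM with EtOH and 168 and 190 CPM with 4-OHT. Hk2, one of the hexokinases that trap glucose in the cell, read 39.0 and 34.0 CPM with EtOH and 35.5 and 37.7 CPM with 4-OHT. For both genes the groups overlapped, with log2 changes of 0.13 (SE 0.07) and 0.00 (SE 0.08). Hexokinase RPKM was mostly Hk1, which made up 91.1% ± 0.572 of the family with EtOH and 91.3% ± 0.0125 with 4-OHT (SD, n = 2).

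In the upper part of the pathway, Gpi1, which isomerises glucose 6-phosphate, read 169 and 152 CPM with EtOH and 167 and 188 CPM with 4-OHT (log2 0.15, SE 0.07). Pfkl, the liver-type subunit of phosphofructokinase, read 294 and 226 CPM with EtOH and 268 and 309 CPM with 4-OHT (log2 0.15, SE 0.11). Aldoa, the main aldolase, read 552 and 473 CPM with EtOH and 510 and 608 CPM with 4-OHT (log2 0.13, SE 0.08). In all 3 the lowest library was EtOH replicate 2, the highest was 4-OHT replicate 2, and the groups overlapped. Pfkl and Aldoa passed the test without 4-OHT replicate 1, at 0.25 for each (adjusted p = 0.0254 and 0.0207, edgeR), and Pfkl also without EtOH replicate 1 (0.35, adjusted p = 0.0221, edgeR). Pfkl held 60.2% ± 3.35 of phosphofructokinase RPKM with EtOH and 60.9% ± 1.43 with 4-OHT (SD, n = 2), ahead of Pfkm and Pfkp. Aldoc, a brain-type aldolase, was at the floor of the pathway with 0.464 and 0.435 CPM with EtOH and 0.387 and 0.453 CPM with 4-OHT (log2 -0.09, SE 0.30). Aldoa has processed copies in the genome between which short reads can be split, so its level is uncertain.

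In the lower part, Gapdh, glyceraldehyde 3-phosphate dehydrogenase, read 70.9 and 67.4 CPM with EtOH and 69.3 and 82.8 CPM with 4-OHT (log2 0.14, SE 0.07). Pgk1, phosphoglycerate kinase, read 356 and 252 CPM with EtOH and 328 and 365 CPM with 4-OHT (log2 0.19, SE 0.21). Pkm, pyruvate kinase, was the most abundant listed mRNA per length at 434 ± 31.2 RPKM with EtOH (SD, n = 2), and read 1184 and 1070 CPM with EtOH and 1154 and 1274 CPM with 4-OHT (log2 0.11, SE 0.06). The groups of all 3 overlapped, and the wide error of Pgk1 came with the distance between its 2 EtOH libraries. Without 4-OHT replicate 1, Gapdh (0.26, adjusted p = 0.0344, edgeR) and Pgk1 (0.26, adjusted p = 0.013, edgeR) passed the test, and Pgk1 also without EtOH replicate 1 (0.46, adjusted p = 3.12e-04, edgeR). The level of Gapdh is uncertain, since its copy Gm12070 held 52.8 to 64.7 CPM of its own. The rank of Pkm therefore holds only for levels as counted. Eno1, the main enolase, was counted at 2 to 4 reads a library and was not tested: 92.8% of its exon bases are also annotated as Gm5506 on the same strand, and Gm5506 held 474 to 566 CPM. Its value here says nothing about enolase.

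Pyruvate is turned to lactate by lactate dehydrogenase. Ldha, its A subunit, read 825 and 712 CPM with EtOH and 793 and 866 CPM with 4-OHT (log2 0.11, SE 0.07), and Ldhb, its B subunit, 15.3 and 15.3 CPM with EtOH and 13.6 and 14.0 CPM with 4-OHT (log2 -0.15, SE 0.09, adjusted p = 0.634, edgeR). Ldhb was the only tested gene with both 4-OHT libraries below both EtOH libraries, an order that 18.3% of all tested genes showed. The share of Ldhb in the summed lactate dehydrogenase RPKM was 2.70% and 3.11% with EtOH and 2.50% and 2.36% with 4-OHT. Pdk1, a kinase that keeps pyruvate out of the mitochondrial oxidation route, read 118 and 98.6 CPM with EtOH and 108 and 116 CPM with 4-OHT (log2 0.05, SE 0.07). Slc16a3, the lactate exporter MCT4, had 4 to 14 reads a library and was not tested.

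Pfkfb3 and Pfkfb4 make fructose 2,6-bisphosphate, the strongest activator of phosphofructokinase. Pfkfb3 read 18.9 and 18.8 CPM with EtOH and 22.3 and 21.9 CPM with 4-OHT. The groups stood apart by 1.17-fold, but the change did not pass the adjustment (log2 0.23, SE 0.08, adjusted p = 0.181, edgeR). Its share in the summed RPKM of the 4 PFKFB genes was 20.4% ± 0.0687 with EtOH and 23.5% ± 0.119 with 4-OHT (SD, n = 2), and that of Pfkfb4 was 17.7% ± 0.889 and 17.9% ± 0.0612.

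Among the other HIF targets, Ndrg1, a stress-induced gene of growth arrest, came closest to a call. It read 182 and 167 CPM with EtOH and 197 and 210 CPM with 4-OHT, with no overlap (log2 0.22, SE 0.07, adjusted p = 0.0569, edgeR). It passed the test with no filter on low counts (0.23, adjusted p = 0.0263) and with total counts as the scaling (0.24, adjusted p = 0.0246), both with edgeR. It did not pass with DESeq2 (0.22, adjusted p = 0.061, DESeq2) or with a replicate block (0.22, adjusted p = 0.354, edgeR). Leaving out a library gave changes from 0.17 (without EtOH replicate 2) to 0.28 (without EtOH replicate 1). Ankrd37, a small ankyrin-repeat gene known as a direct HIF target, read 11.9 and 9.72 CPM with EtOH and 12.1 and 13.6 CPM with 4-OHT (log2 0.24, SE 0.10, adjusted p = 0.306, edgeR). The groups of Ankrd37 did not overlap, by a margin far under the distance between its EtOH libraries.

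Car9, the HIF-driven carbonic anhydrase IX, had the largest estimate of the 32 tested genes and the widest error (log2 0.50, SE 0.42, adjusted p = 0.855, edgeR). Its libraries read 29.3 and 16.4 CPM with EtOH and 27.9 and 36.9 CPM with 4-OHT, so EtOH replicate 2 alone was low. Without EtOH replicate 1 the change was 0.99, without 4-OHT replicate 1 it was 0.69, and without EtOH replicate 2 it was 0.15. In the fit without 4-OHT replicate 1 the SE was 0.09, although the EtOH libraries kept read 29.3 and 16.4 CPM. That SE does not reflect the distance between these 2 libraries, so no p-value is given for these fits. Bnip3, a mitophagy receptor, read 95.6 and 78.4 CPM with EtOH and 88.9 and 95.6 CPM with 4-OHT (log2 0.08, SE 0.07). Vegfa, the vascular growth factor, read 150 and 140 CPM with EtOH and 140 and 149 CPM with 4-OHT (log2 0.00, SE 0.07). P4ha1, a collagen prolyl hydroxylase, read 425 and 400 CPM with EtOH and 416 and 437 CPM with 4-OHT (log2 0.05, SE 0.06). For these 3 genes the groups overlapped.

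The other 11 tested genes (Hk1, Pfkm, Pfkp, Tpi1, Pgam1, Eno2, Pfkfb4, Egln1, Bnip3l, Adm and P4ha2) had log2 changes between -0.07 and 0.15, 9 of them positive, with adjusted p between 0.466 and 0.991 (edgeR). P4ha2, the paralog of P4ha1 and a gene named after its values were seen, had a change of 0.24 without 4-OHT replicate 1.

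**Figure D1:**
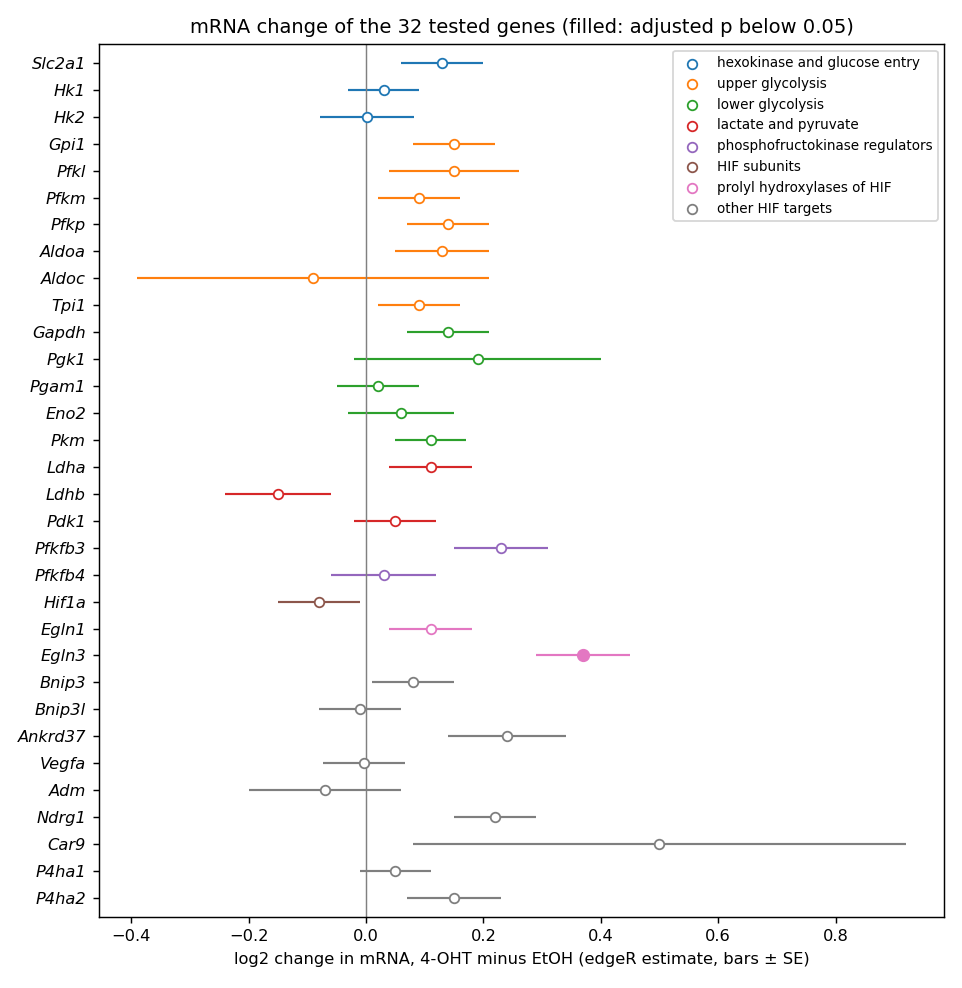
Log2 change in mRNA with 4-OHT against EtOH for the 32 tested genes, from edgeR, with bars of 1 SE and colours for the role of each gene. Egln3, at 0.37, is the only filled point and so the only call, and 26 of the 32 points lie to the right of 0.

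The small changes leaned one way. The median log2 change of the 32 genes was 0.10, with 26 positive and 6 negative, beside a median of 0.00 and 50.9% positive over all tested genes. The lean followed single libraries. EtOH replicate 2 was the lowest library for 26 of the 32 genes and for 29.0% of all tested genes, and 4-OHT replicate 2 was the highest for 21 of the 32 and for 31.4% of all. The 2 EtOH libraries differed from each other by more than this median change: EtOH replicate 1 exceeded EtOH replicate 2 by a median log2 CPM of 0.14, in 31 of the 32 genes, and 4-OHT replicate 1 lay a median of 0.04 below EtOH replicate 1, above it in 8 of the 32. Without EtOH replicate 2, 19 of the 32 changes were positive with no call, where 0.298% of all genes were called higher, and without 4-OHT replicate 1, 29 were positive with 8 called higher, where 1.46% of all genes were. EtOH replicate 2 was also the shallowest mRNA library and 4-OHT replicate 2 the deepest, and the summed fibroblast markers were lowest and highest in the same 2 libraries. The part of depth and of cell makeup in the lean was not tested. Both 4-OHT libraries lay above both EtOH libraries for 7 of the 32 genes, an order that 18.7% of all tested genes showed: Pfkm, Pfkp, Pfkfb3, Egln1, Egln3, Ankrd37 and Ndrg1.

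**Figure D2:**
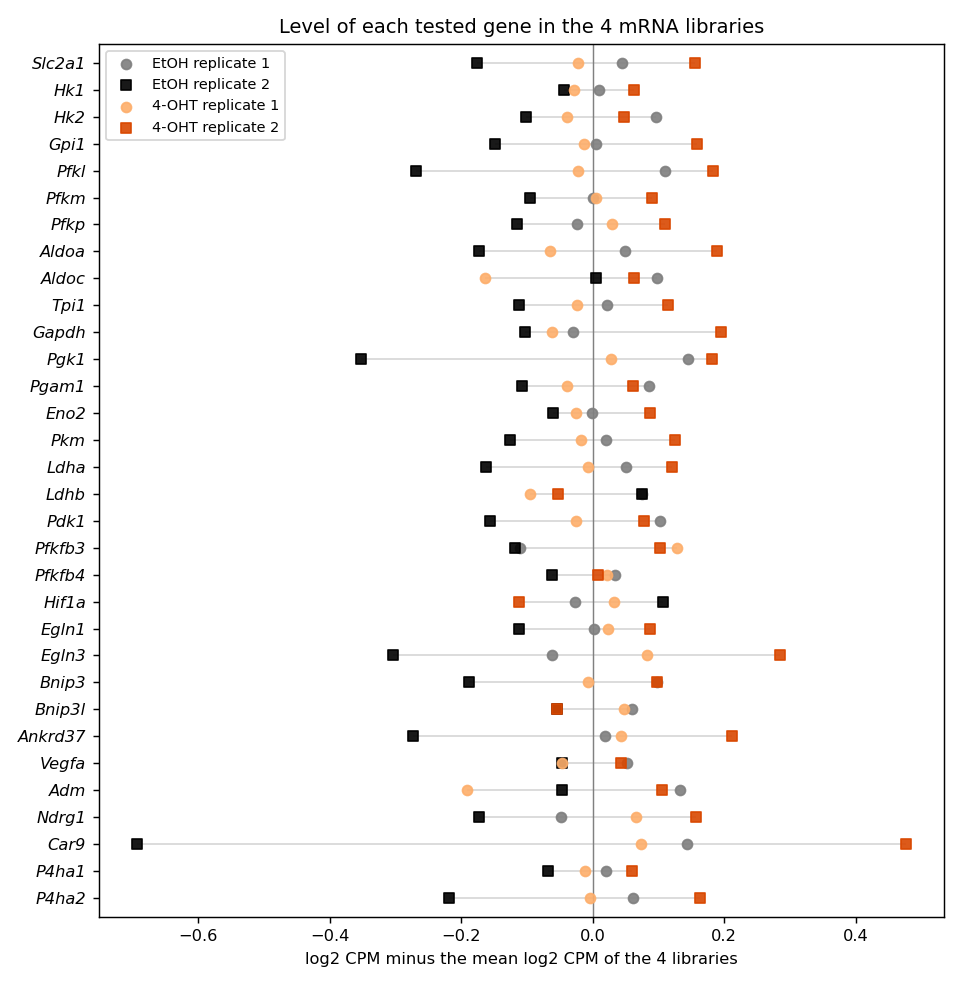
Level of each tested gene in the 4 mRNA libraries, as log2 CPM minus the gene's mean over the libraries, with EtOH in grey and black and 4-OHT in light and dark orange. EtOH replicate 2 (black squares) is lowest for 26 of the 32 genes and 4-OHT replicate 2 (dark squares) highest for 21.

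BMAL1 occupied the starts of many of these genes in EtOH-treated cells, and its ChIP signal there fell several-fold within 4 h of 4-OHT. Of the 35 genes, 17 (48.6%) had a region within 10 kb and 15 within 1 kb. All 17 were among the 32 tested genes (53.1% of these). Over the 13197 tested genes with a single locus, 27.1% had a region within 10 kb, and 2837 genes had one within 1 kb. The regions were called on control ChIP, so they were selected to be high with EtOH, and a gene bound only with 4-OHT would have none. Signals are reads per 10000000 library reads (RP10M), not corrected for the width of a region, and all coordinates are mm10. Each of the 24 regions was above input with EtOH, as 99.5% of all regions were, and 20 were above input with 4-OHT, as 80.6% of all regions were. With 4-OHT, 21 of the 24 were called lower and 0 higher, where 93.8% of all regions were called lower. At an unadjusted p below 0.05 stood 22 of the 24, as did 94% of all regions, and DESeq2 called 17 lower and 0 higher, with 70.2% of all regions called lower. Both 4-OHT libraries lay below both EtOH libraries in all 24, an order that 98% of all regions showed. The median change was -1.71 on the log2 scale near the listed genes and -1.66 over all regions, so a fall of this size was not particular to them. In the fit of the inputs alone, 0 of 4740 regions were called at an adjusted p below 0.05 and 218 had an unadjusted p below 0.05 (edgeR), 1 of them near a listed gene.

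The strongest region of the set covered the start of Hif1a, reaching into its first exon (chr12:73907371-73908266). It held 424 and 451 RP10M with EtOH and 72.8 and 77.2 RP10M with 4-OHT, while the 4 inputs held 6.55 to 8.97 RP10M. The fall was 5.81-fold (log2 -2.54, SE 0.13, adjusted p = 2.46e-83, edgeR), and what remained was still 8.84-fold above input. By EtOH signal this region ranked 64 of 4740. The start region at Bnip3, over its first exon (chr7:138909313-138909910), held 188 and 210 RP10M with EtOH and 45.8 and 42.0 RP10M with 4-OHT (log2 -2.19, SE 0.16, adjusted p = 5.37e-42, edgeR). These were the regions that hold the E-boxes printed in capitals for Hif1a and Bnip3.

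Ndrg1 had a region on its start and first exon (chr15:66969542-66970066) and a stronger one 537 bases downstream, in an intron (chr15:66968569-66969104). The second held 167 and 141 RP10M with EtOH and 31.3 and 30.4 RP10M with 4-OHT (log2 -2.31, SE 0.18, adjusted p = 1.45e-36, edgeR). The first held 71.8 and 79.4 RP10M with EtOH and 30.6 and 25.6 RP10M with 4-OHT (log2 -1.45, SE 0.22). At Ankrd37 the region covered the start and first exon (chr8:45999739-46000100), with 54.1 and 56.7 RP10M with EtOH and 13.8 and 17.4 RP10M with 4-OHT (log2 -1.80, SE 0.28, adjusted p = 3.51e-10, edgeR). In these regions too the 2 replicates of a treatment lay close together and the treatments far apart.

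Among the glycolytic enzymes, Ldha had the strongest start region (chr7:46845469-46845997, start and first exon), with 77.0 and 81.7 RP10M with EtOH and 17.5 and 20.3 RP10M with 4-OHT (log2 -2.05, SE 0.24, adjusted p = 6.43e-17, edgeR). It holds both E-boxes shown for Ldha. Pkm had an intronic region 721 bases downstream of its start (chr9:59657089-59657650) with 77.8 and 65.2 RP10M with EtOH and 20.4 and 22.2 RP10M with 4-OHT (log2 -1.73, SE 0.24, adjusted p = 4.23e-12, edgeR). Pfkl had one 311 bases downstream in an intron (chr10:78009096-78009485) with 75.5 and 67.5 RP10M with EtOH and 17.5 and 15.9 RP10M with 4-OHT (log2 -2.10, SE 0.25, adjusted p = 1.53e-15, edgeR). Pgk1, at its start (chrX:106186751-106187264), had 77.8 and 54.4 RP10M with EtOH and 19.6 and 24.6 RP10M with 4-OHT (log2 -1.54, SE 0.24, adjusted p = 1.35e-09, edgeR). These 4 genes act at separate steps, from the committed step of phosphofructokinase to the making of lactate.

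The steepest estimate of the 24 was an intronic region of Hk2, 722 bases downstream of its start (chr6:82773478-82773732). It fell from 45.9 and 26.7 RP10M with EtOH to 2.91 and 6.76 RP10M with 4-OHT, 6.77-fold (log2 -2.76, SE 0.36, adjusted p = 2.74e-13, edgeR). The size moved with the setting: it was 11.9-fold without 4-OHT ChIP replicate 2, and with the input change subtracted it was 2.91-fold and no longer called (adjusted p = 0.218, edgeR). Pdk1 had a region 305 bases downstream in an intron (chr2:71873577-71873891) with 24.4 and 28.4 RP10M with EtOH and 2.91 and 10.1 RP10M with 4-OHT (log2 -1.88, SE 0.36), and -3.15 without 4-OHT ChIP replicate 2. Gpi1 had the only region beyond 2 kb, 3754 bases upstream of its start (chr7:34234059-34234361), with 24.4 and 17.0 RP10M with EtOH and 5.09 and 7.72 RP10M with 4-OHT (log2 -1.61, SE 0.39). At Gapdh and Aldoa, each with 2 regions, EtOH means ran from 13.7 to 19.6 RP10M and changes from -2.36 to -1.47. The second regions of Pfkl, Pgk1, Pkm and Hk2 had EtOH means of 36.5, 27.3, 12.9 and 5.62 RP10M and changes of -1.65, -1.90, -1.63 and -1.69. The region at Slc2a1, on its first exon (chr4:119108833-119108986), was weak at 12.6 and 13.6 RP10M with EtOH and 6.55 and 4.35 RP10M with 4-OHT (log2 -1.31, SE 0.45, adjusted p = 0.00427, edgeR). The Slc2a1 call was lost without EtOH ChIP replicate 2 (adjusted p = 0.0551) or without 4-OHT ChIP replicate 2 (adjusted p = 0.0655, both edgeR).

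The 3 regions not called were weak and lay at Egln3, P4ha1 and Vegfa. The Egln3 region, on its first exon 446 bases from the start (chr12:54203286-54203428), had read counts of 10 and 17 (EtOH) and of 5 and 10 (4-OHT), or 7.41 and 9.64 against 3.64 and 4.83 RP10M (log2 -0.98, SE 0.50, adjusted p = 0.0525, edgeR). With 4-OHT it was not above input (1.24-fold, adjusted p = 0.587, edgeR). The region at the start of P4ha1 held 14.8 and 9.64 RP10M with EtOH and 3.64 and 8.69 RP10M with 4-OHT (log2 -0.85, SE 0.44, adjusted p = 0.0534, edgeR). That in an intron of Vegfa held 11.1 and 11.3 RP10M with EtOH and 7.28 and 6.28 RP10M with 4-OHT (log2 -0.74, SE 0.44, adjusted p = 0.0956, edgeR). Scaled to library totals the groups stood apart in all 3, but the read counts themselves overlapped at P4ha1 (20 and 17 against 5 and 18) and touched at Egln3. At this depth a fall at these 3 regions could not be separated from the counting error, and the filter on low counts (Egln3, adjusted p = 0.0366) or leaving out 4-OHT ChIP replicate 2 (P4ha1, adjusted p = 0.0122) turned 2 of them into calls. Weak second regions also lost their calls when single libraries were left out: that of Hk2 at 1106 bases without EtOH ChIP replicate 2 (adjusted p = 0.221) or 4-OHT ChIP replicate 1 (adjusted p = 0.0848), and that of Pkm at 152 bases without 4-OHT ChIP replicate 2 (adjusted p = 0.0752, all edgeR).

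**Figure D3:**
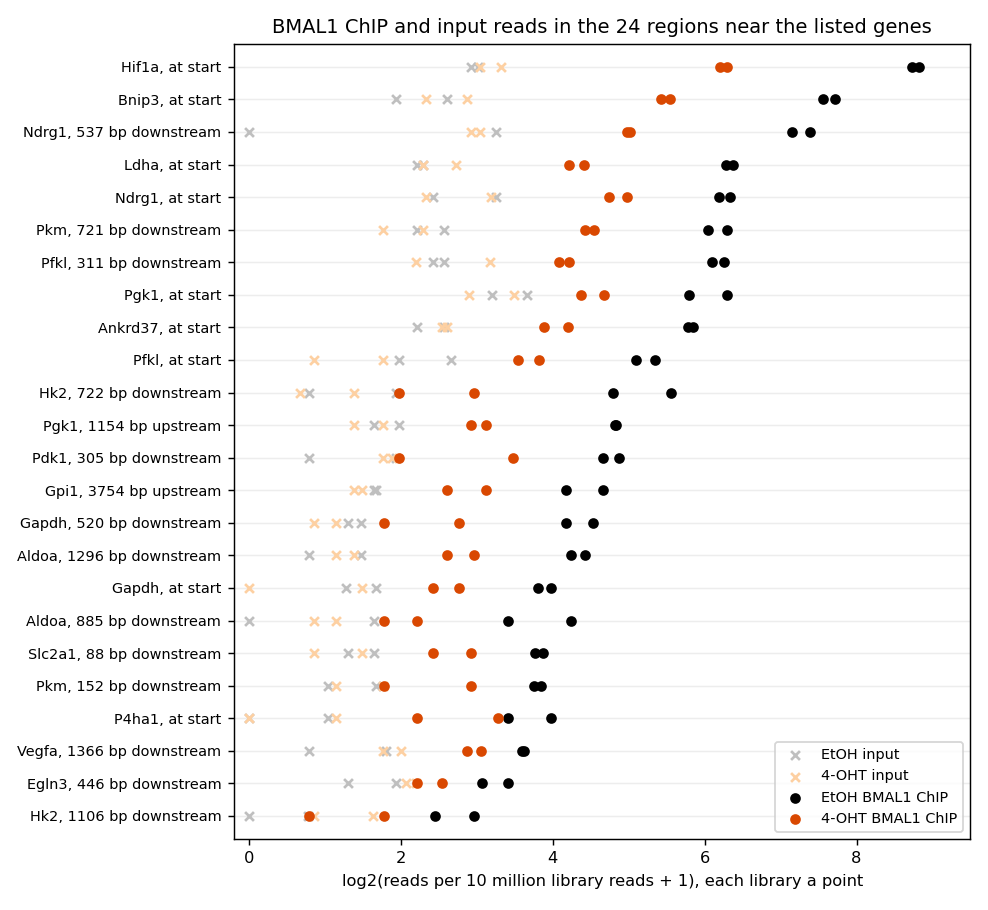
BMAL1 ChIP and input reads in the 24 regions within 10 kb of a listed start, as log2 of reads per 10000000 library reads plus 1, 1 point a library, ordered by EtOH signal. In every row the EtOH ChIP points lie to the right of the 4-OHT ChIP points, from Hif1a at 424 and 451 RP10M to the second Hk2 region at 4.44 and 6.80 RP10M.

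With library totals the fall was shared by nearly all regions, so each gene was also read against the others by scaling on the regions themselves, which moved the median change over all regions from -1.66 to 0.02. On that scale 3 of the 24 regions were called lower, where 4.81% of all regions were: Hif1a (-0.84, adjusted p = 1.50e-09), Ndrg1 at 537 bases (-0.62, adjusted p = 0.0145) and Bnip3 (-0.50, adjusted p = 0.0292, all edgeR). In 11 of the 24 the estimate turned positive, none of them called. Signal at the Hif1a, Ndrg1 and Bnip3 regions thus fell more than at the typical region of the series. The test of ChIP change minus input change, which adds the error of the inputs, called 12 of the 24 lower, where 50.5% of all regions were. The 9 calls it lost were those of Slc2a1, Gpi1, the start of Pfkl, Hk2 at 722 bases, Pkm at 152 bases and both regions of Gapdh and of Aldoa. At the start of Pfkl the estimate itself shrank, from -1.65 to -0.47 (adjusted p = 0.563, edgeR), with an input change of -1.18 that was not called.

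Several strong regions lay farther out or at other starts, outside the window used for the counts above. Pfkfb3 had one inside the gene, 18184 bases downstream of its first start (chr2:11535110-11535745), with 447 and 443 RP10M with EtOH and 69.9 and 70.0 RP10M with 4-OHT (log2 -2.67, SE 0.13, adjusted p = 4.80e-90, edgeR). A second covered its other RefSeq start (chr2:11501353-11502334), with 150.0 ± 6.28 RP10M with EtOH and 35.6 ± 1.15 RP10M with 4-OHT (SD, n = 2). P4ha2 had one 11883 bases downstream of its start (chr11:54112807-54113118), with 65.9 and 60.7 RP10M with EtOH and 18.2 and 16.4 RP10M with 4-OHT (log2 -1.87, SE 0.26). Counting any RefSeq start in place of the outermost one, a choice made after seeing the data, gave 19 genes with a region in place of 17, adding Pfkfb3 and Hk1. No region lay within 50 kb of the starts of 11 genes, among them Egln1, Bnip3l, Ldhb and Tpi1.

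Of the 17 genes with a region, 14 had BMAL1 signal called lower and none of these 14 had an mRNA called in either direction, where 2.77% of all tested genes with such a region did. At Hif1a the ChIP change was -2.54 and the mRNA change -0.08, at Bnip3 -2.19 and 0.08, at Ldha -2.05 and 0.11, and at Ndrg1 -2.31 and 0.22. The 17 genes with a region had a median mRNA change of 0.13, 15 of them positive, and the 15 tested genes without one had a median of 0.06, 11 of them positive. Over all tested genes with a single locus the medians were 0.00 with and without a region, and 50.2% and 51.2% were positive. Listed genes with a region were also the more abundant, with a median of 60.3 RPKM with EtOH against 18.4 RPKM. The same order held over all tested genes with a single locus, at 17.6 RPKM with a region and 9.36 RPKM without. Egln3, the only called mRNA, had a region that ranked 4444 of 4740 by EtOH signal.

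**Figure D4:**
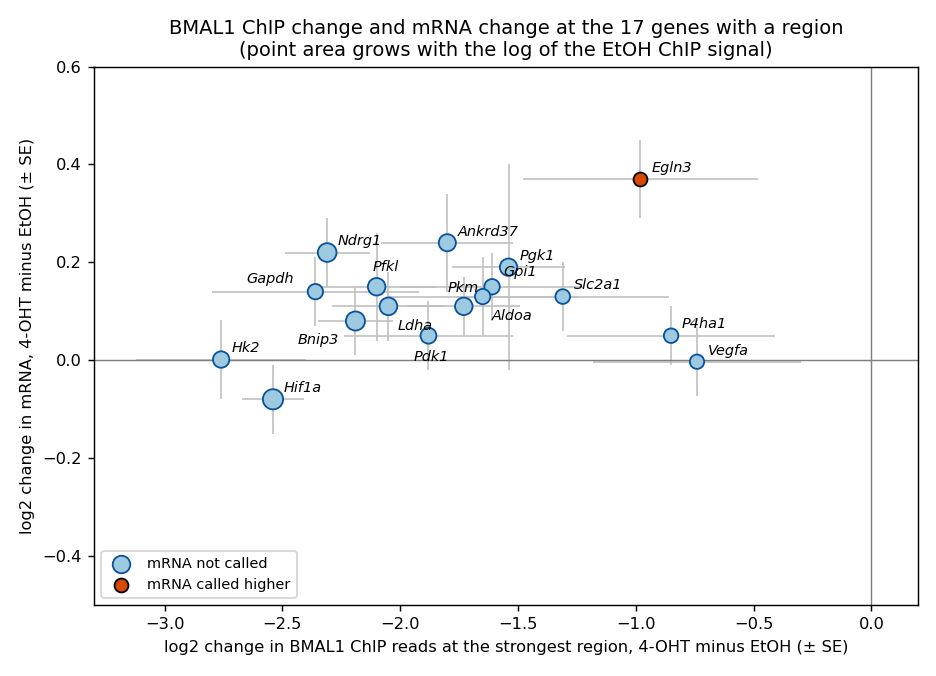
Log2 change in BMAL1 ChIP reads at the strongest region of each of the 17 genes with a region (x axis) and log2 change in its mRNA (y axis), 4-OHT against EtOH, with bars of 1 SE. All ChIP changes lie below 0, from -0.74 at Vegfa to -2.76 at Hk2, while the mRNA changes lie between -0.08 and 0.37, and Egln3 is the only gene with a called mRNA.

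Textbook genes of the same pathways that were not on the list were counted in the same way. Of 61 tested, 2 were called higher and 2 lower, where 0.802% of all tested genes were called higher and 1.63% lower. The median log2 change of the 61 was 0.03, and 3 of the calls are described here. Cited2, which competes with HIF for its coactivators, rose from 123 and 129 CPM to 146 and 156 CPM (log2 0.26, SE 0.06, adjusted p = 0.0136, edgeR), and Bhlhe40, a HIF target and clock repressor, from 99.7 and 89.7 CPM to 113 and 121 CPM (log2 0.31, SE 0.07, adjusted p = 0.0032, edgeR). G6pdx, the entry enzyme of the pentose phosphate pathway, fell from 195 and 199 CPM to 157 and 162 CPM (log2 -0.31, SE 0.06, adjusted p = 0.00193, edgeR). For each of these 3 genes the groups did not overlap. Cited2 was the 1 gene called of 9 in the HIF-system list, and G6pdx the 1 called of 7 in the pentose phosphate list. No call was made among 9 further glycolytic isozymes and neighbours, 12 genes of pyruvate entry into mitochondria and 3 of gluconeogenesis, where 2, 0 and 0 genes had an unadjusted p below 0.05, a level that 10.1% of all tested genes reached. These 3 calls leaned on single libraries: Bhlhe40 was lost without EtOH replicate 2 (adjusted p = 0.476), Cited2 without either EtOH library (0.37 without replicate 1, 0.134 without replicate 2) or without 4-OHT replicate 2 (0.202), and G6pdx without EtOH replicate 1 (0.0507) or 2 (0.14), all adjusted p from edgeR. With the replicate block, Cited2 had an adjusted p of 0.144 (edgeR).

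Regions within 10 kb lay near 25 of the 74 other pathway genes in the count table (33.8%). Of all tested genes with a single locus, 27.1% had one. Of the 39 regions, 38 were called lower, where 93.8% of all regions were. High EtOH signals covered the starts of Bhlhe40 and Pcx. At Bhlhe40 the signal was 1338 and 1316 RP10M with EtOH and 217 and 253 RP10M with 4-OHT (log2 -2.49, SE 0.10, adjusted p = 6.25e-122, edgeR), above that of any listed gene. At Pcx, which encodes pyruvate carboxylase, it fell from 266 and 278 to 62.6 and 58.9 RP10M (log2 -2.17, SE 0.14). With BMAL1 signal down at both, mRNA of Bhlhe40 rose and that of Pcx changed by 0.01 (SE 0.07, adjusted p = 0.992, edgeR).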

How the data were processed

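Polyadenylated RNA and BMAL1 ChIP with input DNA were sequenced by the study. Per the file headers, the authors' counts per gene are from featureCounts (v1.5.0-p1), reverse-stranded, with a gene's exons joined; the submitters' processing notes name mm10, bedtools 2.25.0, featureCounts and DESeq2. Which aligner was used is not stated in the sources used here. For ChIP and input, the authors deposited a count of reads per region and a −log10 q value per region, which is the authors' own. A deposited signal table per region, named RPKM, equals 5 plus reads per 10000000 library reads, so it gave the library totals and is not corrected for length. The authors' own table of comparisons was not used.

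All tests of counts ran in edgeR 4.0.16 under R 4.3.3 (robust quasi-likelihood, Benjamini-Hochberg over all genes or regions, calls at an adjusted p below 0.05): genes with TMM factors and its default filter, regions with library totals and no filter. The 4 mRNA libraries, the 4 ChIP libraries, the 4 input libraries and all 8 ChIP and input libraries formed separate fits. CPM use TMM-scaled totals of counted reads, and RPKM divide them by summed exon length. A gene's start is the upstream end of its outermost exon in the count table. The fits were tested on simulated data first. The members, the lists and the tests were chosen with earlier results of these data known. Values in every library are given for listed genes that were called, had a region within 10 kb, or were among the 5 largest or 3 smallest changes; of other pathway genes, for those called and the 3 with the highest EtOH signal within 1 kb of the start, except 1 gene that is not reported here. Alternatives were DESeq2 1.42.0, other scalings and filters, a replicate block, other windows, and leaving out each library. With 2 libraries against 2, an exact permutation test of a single gene cannot go below p = 0.333, so none was used. Figures were drawn with matplotlib 3.10.9. Sequences are from RefSeq (GRCm38.p6), and amino acid or genome sequence was not used here.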

Additional observations from a re-analysis of the deposited data

How the results depend on the processing

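The limits come from 2 libraries a group: when 1 is left out, the lone library is assumed to vary like the other group. The SE of a gene can then be small although the libraries kept lie far apart, as for Car9. A p-value from such a fit does not measure that scatter. The count of listed genes with higher mRNA was 1. It became 2 with no filter on low counts, where 144 of 16765 genes were called higher, and 2 with total counts, where 138 of 13216 were. It was 1 under DESeq2, DESeq2 size factors and the replicate block. When a library was left out, 19 to 29 of the 32 changes were positive. Over the tested genes, deviations of same-numbered mRNA libraries from their group means had a weak negative correlation (-0.17). A crossed pairing, added after seeing the data, gave 13 genes higher. How many of all tested genes it called higher is not given here, so this count cannot be set against a background. The count of genes lower was 0 throughout, and the median change stayed between 0.01 and 0.18. With library totals 21 regions were lower, and with the input change subtracted 12. Scaling on the regions gave 3 lower, 3 above input with EtOH (24 otherwise) and 2 above input with 4-OHT (20 otherwise), because it sets a change shared by most regions near 0; the replicate block gave 21, 24 and 20. Leaving out a library gave 19 to 21 regions lower and 14 to 20 above input with 4-OHT. Under that scaling the estimate turned positive at P4ha1 (0.84), Pfkl at the start (0.03), Egln3 (0.69), Ndrg1 at the start (0.24), Vegfa (0.93), Slc2a1 (0.36), Gapdh at the start (0.21), Gpi1 (0.08), Aldoa at 1296 bases (0.03), Pkm at 152 bases (0.04) and Pgk1 at the start (0.16). Of the 21 regions called lower, 3 were called in every alternative. For mRNA, Hk2 was -0.0009 with DESeq2 and -0.0006 with its size factors, and Vegfa was 0.02 with total counts. Leaving out a library turned the sign of 14 of the 32 tested genes, 6 of them (Adm, Bnip3l, Eno2, Hk1, Pfkfb4 and Pgam1) without values given in every library, and the other 8 with ranges of -0.09 to 0.11 (Hk2), -0.03 to 0.35 (Pfkl), -0.01 to 0.25 (Aldoa), -0.22 to 0.01 (Aldoc), -0.04 to 0.46 (Pgk1), -0.07 to 0.18 (Pdk1), -0.05 to 0.24 (Bnip3) and -0.05 to 0.04 (Vegfa); the cause was not tested. Genes with a region numbered 15 within 1 kb, 17 within 5 kb, 24 within 50 kb, and 16 and 12 at a −log10 q of at least 5 and 10.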
